A study of Mus musculus with 2 samples.

Results

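The 35 genes described here belong to the integrated stress response and the unfolded protein response. They were listed by name, 16 as ATF4-type genes and 19 as genes of the endoplasmic reticulum (ER), and each was found on the arrays through the transcript accession of its probes. All 35 were measured above background on both arrays, out of 13725 named genes so measured and 23786 named genes in all. No measured value entered the choice of the genes, although results of these arrays were known when they were listed.

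The cells were bone marrow-derived dendritic cells (BMDCs) of C57BL/6J mice, antigen-presenting cells that were grown from femoral marrow with 10 ng/ml of the cytokine GM-CSF and collected on day 6. The study compared cells labelled Egr1-deficient with cells labelled WT; EGR1 is a zinc-finger transcription factor made soon after many stimuli. Each group was read on 1 one-colour Agilent array, both arrays shared a slide and a scan, and no stressor was named for either group. The sources used here do not give the kind of Egr1 allele, the number of mice or any pooling.

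When amino acids run short, when misfolded proteins collect in the ER or when other stresses act, kinases phosphorylate the translation factor eIF2alpha. Most protein synthesis then slows while the transcription factor ATF4 is translated more, and ATF4 turns on genes for amino acid supply and for cell fate. The ER has 3 sensors of its own: PERK (encoded by Eif2ak3), which is one of those kinases, IRE1alpha (encoded by Ern1), which splices the Xbp1 transcript, and ATF6. Through XBP1 and ATF6 they raise chaperones, folding enzymes and the degradation machinery. In dendritic cells the IRE1alpha and XBP1 branch is known for its part in cell survival and antigen presentation.

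Before the members, the labels were checked. Egr1 itself had a processed signal of 1212 on the EGR1-deficient-labelled array and 379.7 on the WT array, a log2 difference of 1.61 in the opposite direction to the label. It has 1 probe, and the sources used here do not say where it lies relative to the altered part of the gene, so the direction of every difference below rests on the labels as given. Both samples are labelled male, yet Xist, the RNA that silences an X chromosome in female cells, read 4559 and 3425 (EGR1-deficient first). Ddx3y, Kdm5d and Uty of the Y chromosome were well above background on neither array. Eif2s3y, also of the Y chromosome, was well above background on both in 1 of its 2 probes, at 27.1 and 25.6. All 8 dendritic cell markers, among them Itgax, Cd74 and H2-Ab1, were above background on both arrays. The same held for all 8 macrophage and all 8 neutrophil markers, so this check does not single out dendritic cells. Of 59305 non-control spots, 59.8% were well above background on the EGR1-deficient-labelled array and 55.2% on the WT array.

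Every value below is a single reading, with no replicate check and no p-value. The scanner program's processed signal is a background-subtracted brightness, and differences are log2 signal, less each array's 75th percentile, of the EGR1-deficient-labelled array minus WT. The errors at hand are technical only. For probes printed many times, the difference had a median SD of 0.07 log2 units where the WT signal was 200 or more (259 probes). That SD was 0.20 between 50 and 200 (8 probes) and 0.32 under 50 (2 probes). In genes with 2 probes above background on both arrays, the 2 probes disagreed with a median SD of 0.17 (3571 genes). The root-mean-square SD of the same genes was larger, at 0.31.

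The elements that ATF4 and the ER sensors act through have known letters, so the promoters of the members were searched for them. RefSeq promoter windows on build GRCm38.p6, each running from 250 bases before to 50 after a gene's start, were at hand for 31 of the 35 genes. The site shared by ATF4 and C/EBP factors, TGATGNAA on either strand, was found for 5 of 15 ATF4-type genes, 1 of 16 ER genes (Herpud1) and 4.51% of all 27025 genes with a window. The ER stress element, CCAAT followed after 9 bases by CCACG on either strand, was found for 6 of 16 ER genes, none of the 15 ATF4-type genes and 0.137% of all genes. The EGR1 site GCGTGGGCG was found in none of the 31 members and in 0.707% of all genes; a match is a description of letters, and its absence speaks of this window only.

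The stretches below were chosen as the 2 ATF4-type and the 2 ER genes of highest mean signal among those with a match, and they show what the letters look like in place. Capitals mark the fixed letters of the ATF4 site in the first pair and of the ER stress element in the second pair, and each stretch is written on the strand of its gene, upstream of the start. They lie at chr3:50443641-50443691 (minus strand) for Slc7a11, chr6:7693213-7693244 (minus strand) for Asns, chr2:34772013-34772055 (plus strand) for Hspa5 and chr10:86705521-86705668 (minus strand) for Hsp90b1.
Slc7a11: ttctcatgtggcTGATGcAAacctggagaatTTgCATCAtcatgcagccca
Asns: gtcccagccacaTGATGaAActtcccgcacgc
Hspa5: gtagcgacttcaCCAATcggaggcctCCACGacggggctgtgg
Hsp90b1: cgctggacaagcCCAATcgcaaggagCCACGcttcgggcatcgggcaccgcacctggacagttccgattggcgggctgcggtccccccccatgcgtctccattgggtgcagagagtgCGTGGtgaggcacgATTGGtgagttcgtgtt
Slc7a11 and Hsp90b1 carry their element once in each orientation, Asns and Hspa5 once.

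The ATF4-type genes and the ER genes had different medians. Of the 16 ATF4-type genes, 10 were lower on the EGR1-deficient-labelled array and 6 higher, with a median difference of −0.03 and a range from −0.66 to 1.13. Of the 19 ER genes, 17 were lower and 2 higher, with a median of −0.19, −12.3% as a percent change, and a range from −0.43 to 0.16. Over all 13725 genes measured on both arrays the median was −0.05 and 57.4% were below 0, so the ATF4-type share of genes below 0 lay close to that background and the ER share above it.

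Few of these differences were large. At 1.5-fold or more, 2 of the 35 members were higher on the EGR1-deficient-labelled array (Trib3 and Slc7a5), against 3.51% of all genes, and 1 was lower (Chac1), against 4.17%. At 2-fold or more 1 member was higher, Trib3, against 0.707% of all genes, and none was lower, against 1.01%. All 3 genes past 1.5-fold were ATF4-type genes with dim probes. After normexp, an alternative background correction, none of the 35 was 1.5-fold apart. As run here it also added 50 to every signal, which by itself draws the folds of dim probes towards 1.

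**Figure D1:**
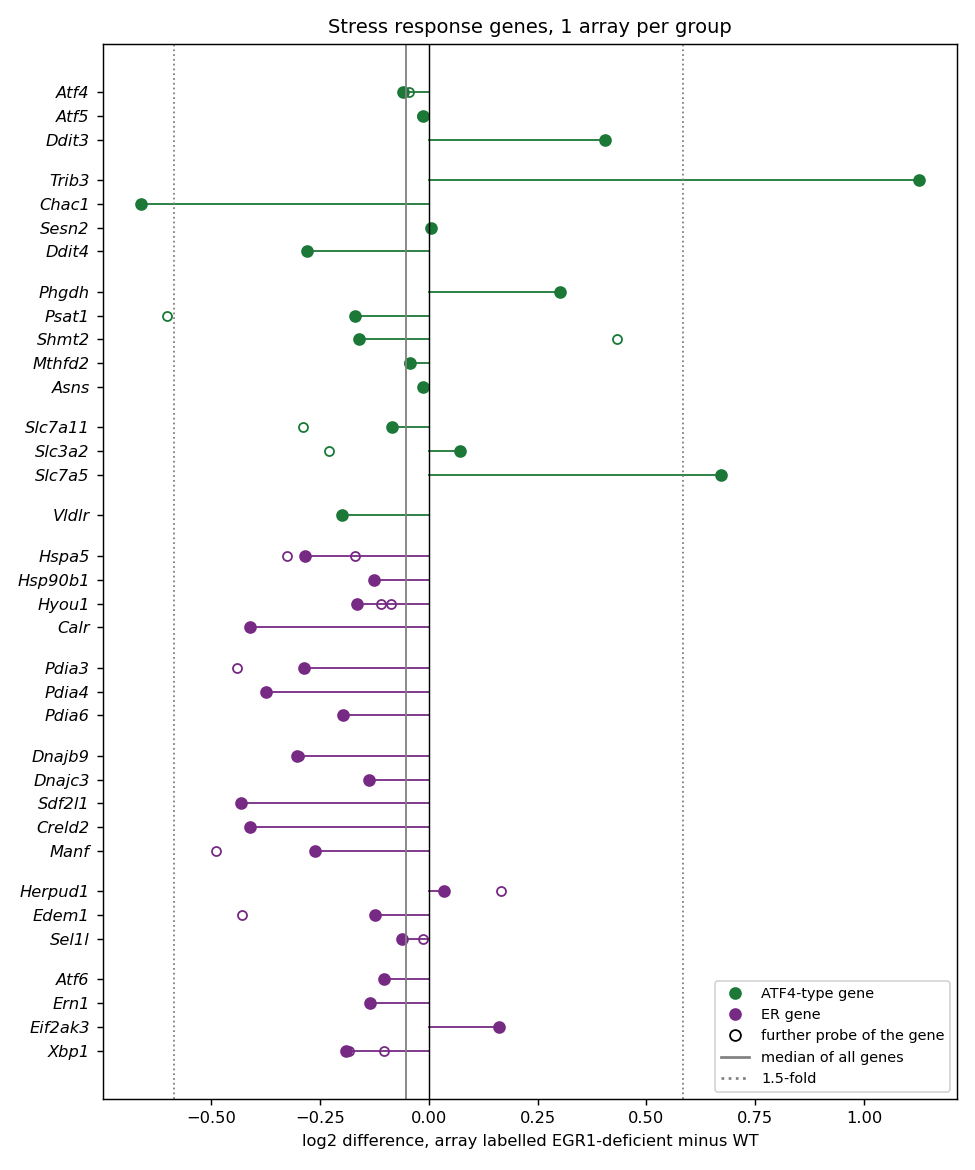
Log2 difference (EGR1-deficient-labelled array minus WT, horizontal axis) of each of the 35 genes, grouped by role; filled points are the gene's brightest probe and open points its further probes above background on both arrays. The ATF4-type genes scatter to both sides with Trib3 at 1.13 and Chac1 at −0.66, whereas 17 of 19 ER genes lie left of 0 and all 19 lie inside the dotted 1.5-fold lines.

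Among the ATF4-type transcription factors, Atf4 and Atf5 were nearly equal on both arrays and Ddit3 was higher on the EGR1-deficient-labelled one. Atf4, the central factor of the response, read 8311 there and 8267 on the WT array (difference −0.06), and its other probe differed by −0.05. Atf5, which encodes a related stress-induced factor, read 6667 and 6427 (−0.01), with a second probe at −0.02. Both genes thus had 2 probes that gave the same small difference, and over the alternatives Atf4 lay between −0.18 and 0.11. Ddit3, which encodes the death-linked factor CHOP, read 136 against 97.8 (0.41, 1.33-fold) in its only probe; its difference stayed positive, between 0.29 and 0.52, in the alternatives that could measure it.

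Genes of feedback and growth control went in opposite directions. Trib3, which encodes a pseudokinase that is induced by CHOP and ATF4 and dampens AKT signalling, read 98.5 on the EGR1-deficient-labelled array and 43.1 on WT, 2.18-fold higher (1.13). Chac1, which encodes an enzyme that breaks down glutathione and is another target of ATF4 and CHOP, read 15.8 against 23.9, 1.58-fold lower (−0.66). These are the 2 extremes of the whole list, each rests on 1 probe, and the Chac1 readings lie just above the lowest signals called well above background, 13.3 and 16.3. The size of both depends on processing: normexp, with its added 50, gave 0.42 for Trib3 and −0.17 for Chac1. How much of that shift came from the added 50 was not tested. The authors' series table took Chac1 to −0.545, under 1.5-fold. Regulators of mTORC1 differed less: Sesn2, a leucine-sensing sestrin, read 475 and 452 (0.01), and Ddit4, which encodes REDD1, read 589 and 682 (−0.28).

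Serine and one-carbon enzymes differed little. Phgdh, the first enzyme of serine synthesis, read 104 and 80.5 (0.30), and Psat1, the next enzyme, 92.6 and 99.4 (−0.17). Shmt2 and Mthfd2, which carry serine carbon into the mitochondrial folate cycle, read 179 and 191 (−0.16) and 1505 and 1481 (−0.04). Asns, the asparagine synthetase gene whose promoter stretch is printed above, read 185 and 178 (−0.01). Probes of the dimmer enzymes disagreed: a second Psat1 probe was at −0.60 and a second Shmt2 probe at 0.43, whereas that of Mthfd2 was at −0.05. Neither Psat1 nor Shmt2 therefore has a settled size, and for Shmt2 not even a direction.

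Amino acid transporters were led by Slc7a5. This gene, which encodes the LAT1 light chain that brings in leucine and other large amino acids, read 105 against 63.0, 1.59-fold higher on the EGR1-deficient-labelled array (0.67) in its only probe. Its partner Slc3a2, the heavy chain shared by several such transporters, was nearly equal, at 161726 and 146947 (0.07, or 0.24 with loess normalization). A second Slc3a2 probe read far lower signals, 8195 and 9179, and differed by −0.23. Slc7a11, the cystine carrier that also pairs with Slc3a2, read 409 and 414 (−0.08; second probe −0.29). The 2 chains of LAT1 thus did not read alike. The fold of Slc7a5 fell below 1.5 with median scaling (0.55) and normexp (0.43). Vldlr, a lipoprotein receptor gene under ATF4, read 28.6 and 31.3 (−0.20), and another of its probes was above background only on the EGR1-deficient-labelled array.

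The large differences among ATF4-type genes were all at low signal. Of the 9 whose lower signal was under 200, 4 differed by 0.4 or more; of the 7 brighter ones none did, with differences from −0.28 to 0.07. The 15 ER genes as bright as that ran from −0.43 to 0.04, so at that signal the ATF4-type range was not the wider one. The repeated-spot error also rises at low signal, as given above.

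**Figure D2:**
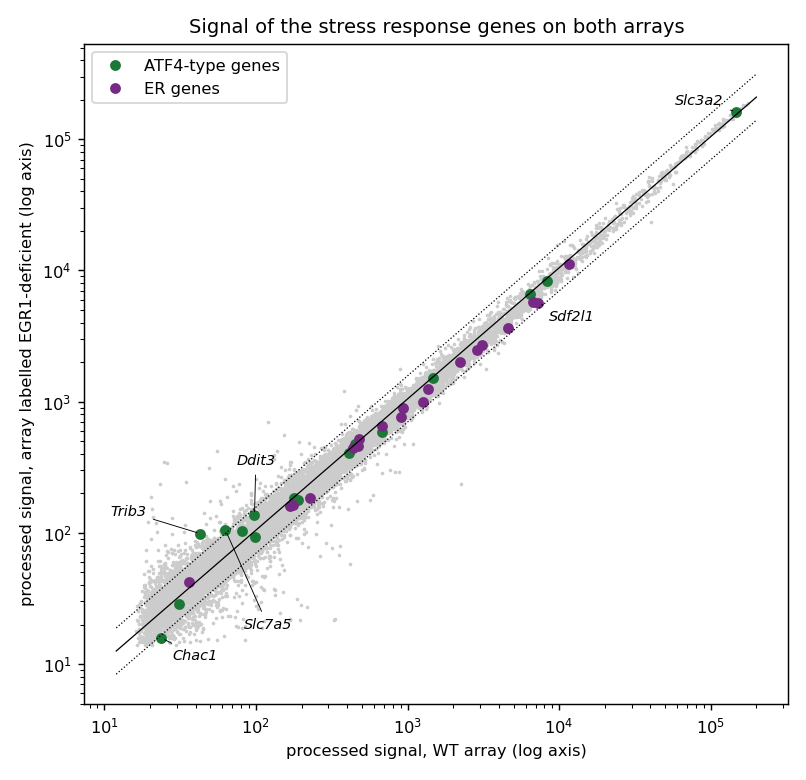
Processed signal of every named gene above background on both arrays (grey) and of the 35 members (coloured), WT on the horizontal and the EGR1-deficient-labelled array on the vertical axis, both on log scales; the solid line is equality after scaling and the dotted lines are 1.5-fold. Trib3 and Slc7a5 lie above the upper dotted line and Chac1 below the lower one, all at low signal, and most ER genes lie just under the solid line at high signal.

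The ER chaperones and folding enzymes were all lower on the EGR1-deficient-labelled array, by modest amounts. Hspa5, which encodes BiP, the HSP70-type chaperone that holds the sensors inactive, read 5766 and 6701 (−0.28), and its other 2 probes were at −0.32 and −0.17. Calr, the calcium-binding lectin chaperone calreticulin, read 3619 and 4592 (−0.41, 1.33-fold). Hsp90b1, the ER member of the HSP90 family, read 11114 and 11588 (−0.13). Hyou1, a nucleotide exchange factor for BiP, read 163 and 175 (−0.17; other probes −0.11 and −0.09). All 4 stood below the median of all genes, Hsp90b1 least.

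The 3 disulfide isomerases among the members, which make and reshuffle disulfide bonds, were lower too. Pdia3, which works with calreticulin, read 2456 and 2861 (−0.29; second probe −0.44). Pdia4 read 185 and 229 (−0.37). Pdia6 read 2018 and 2209 (−0.20). The 3 genes were 1.15-fold to 1.30-fold lower.

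The 5 co-factors had a median of −0.30, the lowest of the role groups with more than 1 gene. Sdf2l1, which keeps BiP clients soluble, read 5657 and 7286, the lowest difference among the ER genes (−0.43, 1.35-fold). Creld2, which encodes an ER-resident folding factor, read 993 and 1261 (−0.41). Manf, a secreted BiP co-factor, read 2709 and 3102 (−0.26; second probe −0.49). Both DnaJ proteins, which deliver clients to BiP, were also lower: Dnajb9, a sensitive target of XBP1, read 770 and 907 (−0.30, equal in its second probe), and Dnajc3 read 647 and 679 (−0.14). Across these chaperones, isomerases and co-factors, 12 of 12 genes were below 0, against 57.4% of all genes. Among the 2745 brightest genes 69.4% were below 0. Of the 12, Hsp90b1 came to 0.01 with loess normalization.

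The sensors and the degradation genes had medians nearer to 0 than the chaperones, isomerases and co-factors. Atf6 read 460 and 471 (−0.10, or 0.01 in the authors' series table) and Ern1 160 and 168 (−0.13). Eif2ak3 was 1 of only 2 ER genes above 0, at 42.5 and 36.3 (0.16), but turned to −0.06 after normexp; another of its probes, at 23.0 and 9.55, was above background only on the EGR1-deficient-labelled array. Xbp1 probes were not tied to its spliced or unspliced form; the gene read 1259 and 1370.5 (−0.19), with other probes at −0.18 and −0.10. Of the genes that remove misfolded proteins, Sel1l, the scaffold of the HRD1 ligase, read 440 and 439 (−0.06, or 0.08 after normexp) and Edem1, a lectin that picks clients, 893 and 930 (−0.12; second probe −0.43). Herpud1, which organises that ligase and whose promoter window holds the ATF4 site rather than the ER stress element, was the other gene above 0, at 518 and 482 (0.04; second probe 0.17), and turned to −0.08 with median scaling. The median was −0.12 for the 4 sensors and factors and −0.06 for the 3 degradation genes.

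Markers of other cell types differed between the arrays too, and their part in these results was not tested. In bulk RNA, fewer cells of a type and less RNA per cell cannot be told apart. All 8 macrophage markers were lower on the EGR1-deficient-labelled array, with a median of −0.36 and a summed signal of 135 against 175 times the 75th percentile. The 6 basophil, mast cell and eosinophil markers measured on both arrays were all lower, with a median of −0.53 and summed signals of 21.8 and 31.8; Fcer1a was not well above background on either. The 8 dendritic cell markers had a median of −0.03 and summed signals of 236 and 248, and the 8 neutrophil markers a median of −0.0039 and summed signals of 326 and 305. Of 11 B and plasma cell markers, 6 were measured on both arrays (4 below 0, median −0.69, summed signals 5.86 and 6.25), while the plasma cell genes Jchain, Tnfrsf17 and Derl3 were not well above background on either. Of 6 plasmacytoid dendritic cell markers, 5 were measured on both arrays, with a median of −0.05. The summed signals over all 6 were 50.5 and 46.6. Of 7 stromal markers, 2 were measured on both arrays, both higher, with summed signals of 1.097 and 0.584 over all 7, while Col1a1, Col3a1 and Dcn were above background on the EGR1-deficient-labelled array alone (at least 1.83-fold higher for Dcn) and Lum and Pdgfra were not well above background on either.

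Further probes gave the same picture for the ER genes. The 12 further probes above background on both arrays, from 9 ER genes, had 11 below 0 and a median of −0.18, against 55.7% below 0 and a median of −0.04 over 5845 further probes of all genes. The 7 further ATF4-type probes had 6 below 0 and a median of −0.05. Probes of 1 gene share their RNA and array, so they check the probe and not the cells.

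Bright genes in general were lower on the EGR1-deficient-labelled array, and most ER genes are bright. The genes were ranked by mean signal into 5 classes of 2745. In the brightest class the median was −0.10 and 69.4% were below 0, and in the dimmest it was 0.02. The 10 ER genes in the brightest class had a median of −0.27, and all 10 lay below that class's own median, while none of the 4 ATF4-type genes there did. Counted over all classes, 16 of 19 ER genes and 6 of 16 ATF4-type genes lay below the median of their own class. With that median taken off each gene, the ER genes had a median of −0.09 and the ATF4-type genes of 0.05.

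Genes with the ER stress element lay within the range of those without it. The 6 with a match (Hspa5, Hsp90b1, Calr, Pdia6, Dnajc3 and Creld2) were all below 0, from −0.41 to −0.13, with a median of −0.24. The 10 with a window but no match ran from −0.43 to 0.16, with 8 below 0 and a median of −0.16. The 5 ATF4-type genes with an ATF4 site (Trib3, Asns, Chac1, Slc7a11 and Vldlr) held both extremes of the list, from −0.66 to 1.13, and 4 of them were below 0.

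The rest of the pathways was read from 10 further lists with 120 genes, of which 112 were measured on both arrays. Of these 112, none was 1.5-fold higher on the EGR1-deficient-labelled array, against 3.51% of all genes, and 3 were 1.5-fold lower, against 4.17%. These were Eif2s1, which encodes the eIF2alpha subunit that the kinases phosphorylate, at 260 and 398 (−0.68), Fgf21, a hormone gene induced by ATF4, at 20.7 and 35.5 (−0.84), and Creb3l2, a membrane-bound factor of ER secretory capacity, at 40.2 and 60.2 (−0.65). Each rests on a single probe above background on both arrays, and the last 2 are dim. After normexp, with its added 50, the 3 stood at −0.58, −0.36 and −0.27, none of them 1.5-fold apart.

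Other ATF4-side lists lay around the median of all genes, 57.4% of which were below 0. The 13 kinases, phosphatase subunits and eIF2 and eIF2B subunits had 8 below 0 and a median of −0.09. The 8 other ATF and C/EBP factors had 5 below 0 and a median of −0.10, with the stress-induced repressor Atf3 at −0.58 (598 and 855) and Nupr1, a stress-induced chromatin protein gene, at −0.37 (1318 and 1626). The 12 aminoacyl-tRNA synthetases, enzymes that load amino acids onto tRNA, had 8 below 0 and a median of −0.05. Tars (−0.39) and Gars (−0.26) had the largest differences. The highest of the 4 above 0, named after it was seen, was Aars (0.25). The 10 other outputs had 6 below 0 and a median of −0.10.

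With the scale used here, the medians of the amino acid enzymes and transporters were above 0; the transporter median turned to −0.03 with median scaling, and 5 other lists were above 0 too in the authors' series table. Of 12 enzymes 8 were measured on both arrays, 6 of them above 0, with a median of 0.18; the transsulfuration gene Cbs read 33.5 and 23.3 (0.45, or 0.06 after normexp) and the folate enzyme gene Mthfd1 116 and 88.8 (0.31), but a second Mthfd1 probe was at −0.25. Aldh1l2, a mitochondrial folate enzyme gene named after its values were seen, had the widest disagreement between probes in this list, with its brightest probe at 52.9 and 41.8 (0.27) and a second at 24.4 and 64.4 (−1.47). Gpt2, an alanine aminotransferase gene, was above background only on the EGR1-deficient-labelled array and at least 1.24-fold higher there, a bound set by the lowest WT signal called well above background. Shmt1, Pycr1 and Cth were not well above background on either. Of 8 transporters 7 were measured on both arrays and 5 were above 0, with a median of 0.08, Slc43a1 at 0.21 and Slc38a1 at −0.41. The enzyme median came to −0.0092 over the 4 genes that pass the stricter filter on dim probes.

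Of the ER-side lists, 3 had medians below that of all genes, and the median of the folding list equalled it when rounded. Over all genes, 57.4% were below 0. The 13 genes of the channel that moves new proteins into the ER and of its partners had 12 below 0 and a median of −0.23, with the channel subunit Sec61a1 at −0.47 (704 and 934; other probes −0.22 and 0.21) and the signal peptidase subunit Sec11c at −0.40. The 10 further sensors and processing genes had 9 below 0 and a median of −0.30. Their median was −0.087 over the 5 of them that have a second probe, read in that probe. The 15 measured genes of ER-associated degradation had 11 below 0 and a median of −0.13, led by Erlec1 (−0.30) and Ube2g2 (−0.29). With the median of each gene's brightness class taken off, the degradation list came to −0.03. The channel list then stood at −0.17 and the further sensors at −0.25. The 16 measured folding and redox enzymes had 12 below 0, but a median of −0.05, equal to that of all genes, with the prolyl isomerase Fkbp2 at −0.44 and Txndc5 at −0.42. Their highest value, named after it was seen, was that of the disulfide isomerase gene Pdia5, at 38.5 and 28.9 (0.34).

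**Figure D3:**
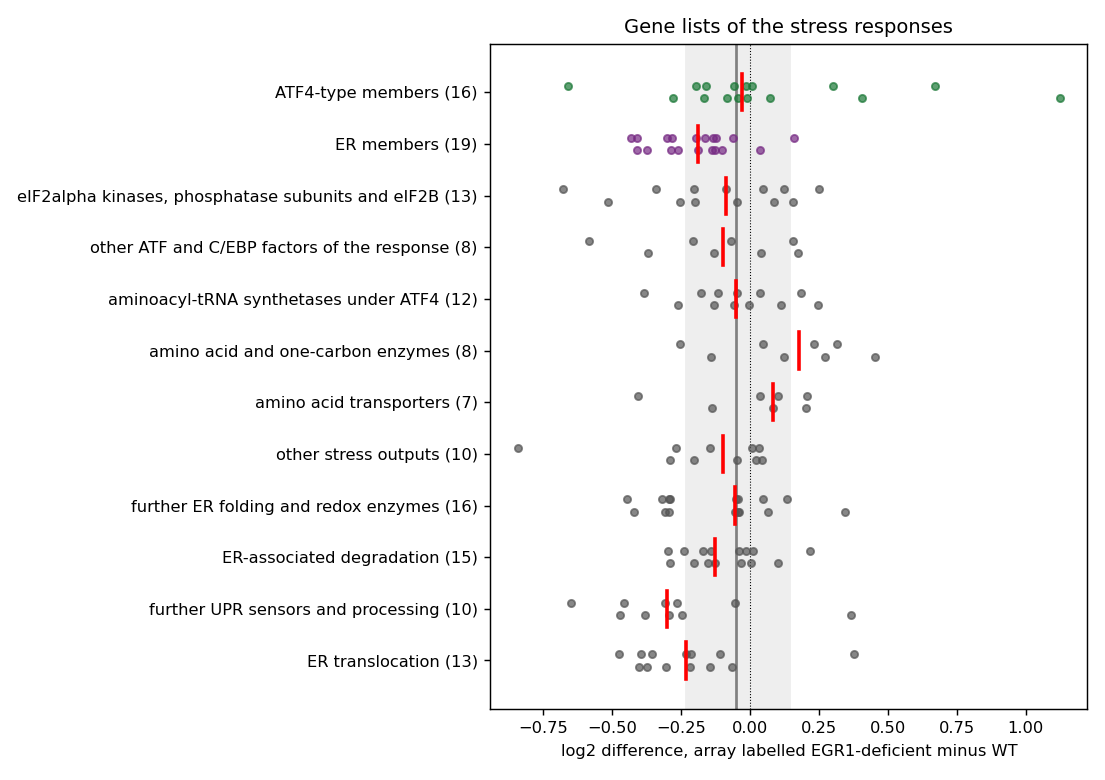
Log2 difference (EGR1-deficient-labelled array minus WT, horizontal axis) of each gene above background on both arrays in 12 lists, with their number in brackets; red bars are list medians, the grey line is the median of all genes and the grey band its interquartile range. The medians of the ER members (−0.19), the translocation list (−0.23) and the further sensors (−0.30) lie left of the grey line, and those of the amino acid enzymes (0.18) and transporters (0.08) to its right.

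The scale chosen between arrays sets how many ATF4-type genes fall on each side of 0. Their median ran from −0.15 to 0.10 over 11 alternatives and was above 0 in 5 of them. With the 75th percentile taken over spots above background on both arrays, 6 of 16 were below 0, and in the series table of the authors it was 4 of 15; all genes below 0 moved with them, to 47.5% and 40.2%, and to 72.1% with median scaling. The ER median stayed below 0 in all 11, from −0.31 to −0.07, and its distance from the median of all genes from −0.25 to −0.08. Its distance from the ATF4-type median ran from −0.25 to −0.15 in the same 11.

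**Figure D4:**
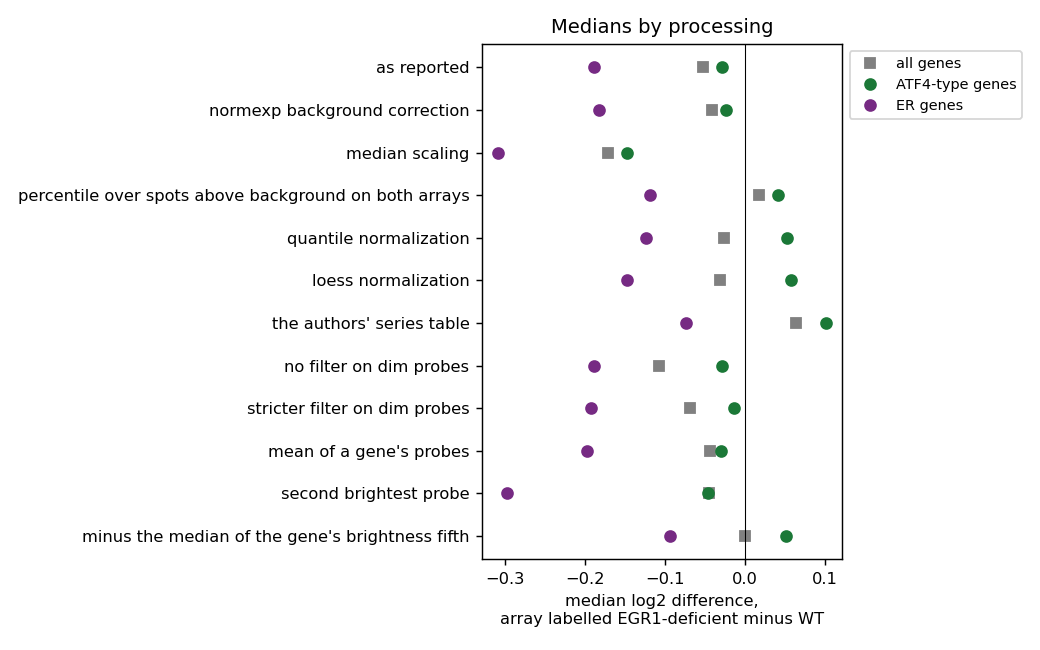
Median log2 difference (EGR1-deficient-labelled array minus WT, horizontal axis) of the ATF4-type genes, the ER genes and all genes under the processing as reported and 11 alternatives. The ER median lies left of that of all genes in every one, from −0.31 to −0.07, and the ATF4-type median lies on either side of 0.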

How the data were processed

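RNA of 2 samples, 1 per group, was read on 1-colour arrays. The authors deposited scanner output with a processed intensity per spot, made with Agilent Feature Extraction 12.1.0.3 per the file headers (11.5.1.1 per the submitters' processing notes), with background subtraction and detrending and no scaling between arrays. Their series table of intensities equals these times 6.18 and 5.97.

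Here 144 outlier spots were left out, log2 signals were set relative to the 75th percentile of the array's non-control spots (signals of 191.6 and 183.0), and repeated spots were averaged. Probes were named by accession in a RefSeq table of GRCm38.p6, giving 34565 of 56603 probes a gene; the files name mm9, so that table gave names only. A gene's value is its probe of highest mean signal. At-least folds use the lowest signal well above background on the dim array.

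All 35 members are named, and of other lists the genes 1.5-fold apart or else the 2 largest differences. The members and lists were chosen with earlier results of these data known. With 1 array per group no test was run; the steps were tested on simulated data. Ends of the proteins, which were to be described, are not analysed here. Alternatives changed background, scale, normalization, source table, filter or probe, with limma 3.58.1 in R 4.3.3; normexp (offset 50) was applied to spot medians.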

Additional observations from a re-analysis of the deposited data

How the results depend on the processing

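The data were processed in 10 other ways and in 1 chosen after seeing the data (each gene against its class of brightness). Log2 differences and medians were called moved when they shifted by more than 0.17 log2 units, the median disagreement (SD) of a gene's 2 probes. That limit does not apply to the counts of members given below. Normexp, whose added 50 draws dim folds towards 1, took the count of members 1.5-fold apart from 3 to 0 and that of 2-fold from 1 to 0. The stricter filter on dim probes left 1 of 31 members 1.5-fold apart and 0 of 31 2-fold apart, since Trib3 and Chac1 are removed by it, and it moved the amino acid enzyme list from 0.18 to −0.0092. With the second brightest probe, which 16 of 35 members have, 0 were 2-fold apart. That setting also moved list medians: 0.11 for the ATF and C/EBP factors (3 genes), −0.25 for amino acid enzymes (3 genes), −0.20 for amino acid transporters (1 gene), −0.24 for folding and redox enzymes (7 genes) and −0.087 for the further sensors (5 genes); fewer genes enter there. No other list or group median moved by that much, and no member called 1.5-fold apart changed direction. No paired analysis was possible because each group has 1 array. The number of arrays and the dim signal of Trib3, Chac1 and Slc7a5 limit precision.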
